A study of Homo sapiens with 18 samples.

Results

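The 6 genes described here, HIPK1, HIPK2, HIPK3, DYRK1A, DYRK1B and DYRK2, encode protein kinases of the HIPK and DYRK families. They were selected on editing per site in polysome against total RNA and on their levels and polysome association, and taken by gene symbol out of 60675 human gene rows. All 6 were among the 26804 genes that passed the filter on low counts, and all 6 were listed as edited under each of the 3 constructs. The constructs YTHDF3-ADAR, YTHDF2-ADAR and YTHDF1-ADAR listed 7042, 4547 and 6858 genes. These were 36.4%, 23.5% and 35.4% of 19349 protein-coding symbols, expressed or not. At least 1 construct listed 8714 genes, and the number of genes listed under all 3 was not counted.

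HIPK and DYRK kinases are neighbouring branches of the CMGC group of protein kinases, which also holds the cyclin-dependent kinases, MAP kinases and CLK kinases. A DYRK-type kinase phosphorylates a tyrosine in its own activation loop while it is being made and then acts on serines and threonines of other proteins. HIPK kinases sit mostly in the nucleus and act on transcription factors and their cofactors, while DYRK kinases are known for control of NFAT factors, cell cycle exit and neuronal growth.

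RNA came from HEK293T, a line derived from human embryonic kidney, whose cells carried YTHDF3, YTHDF2 or YTHDF1 fused to the catalytic part of an ADAR deaminase. YTHDF proteins bind mRNA that carries N6-methyladenosine, and the fused deaminase converts nearby adenosines so that they read as G, which leaves a mark on transcripts the protein has met. All 6 groups received doxycycline at 1 µg/mL for 24 h to induce the fusion and cycloheximide at 100 µg/mL for 10 min to hold ribosomes on mRNA. For each of the YTHDF3-ADAR, YTHDF2-ADAR and YTHDF1-ADAR lines, 3 libraries were made from pooled polysome fractions of a sucrose gradient and 3 from total RNA, after ribosomal RNA depletion. No library lacked a fusion, so the lines were compared with each other. The labels do not say whether a line is 1 clone or whether replicates were separate cultures, so p-values measure the spread between these libraries, which may be technical.

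Library totals ran from 42699303 to 67549159 counts. Protein-coding genes took 88.6 to 90.6% of the counts of polysome libraries and 55.2 to 74.8% of those of total RNA libraries. The RNA of ADARB1, which encodes a deaminase of the ADAR family, stood at 1456 ± 326 CPM in YTHDF3-ADAR, 38.9 ± 1.55 CPM in YTHDF2-ADAR and 247 ± 17.7 CPM in YTHDF1-ADAR total RNA (SD, n = 3 each, where CPM is the count scaled to a common library total with TMM factors). Editing is therefore compared here within a construct, and numbers of sites between constructs are given beside these levels, whose part in them was not tested. YTHDF1, YTHDF2 and YTHDF3 RNA were each highest, by the mean of total RNA, in the line named for them. Transcripts of a fusion and of the endogenous gene were not told apart by the counts. The neuronal genes that HEK293T cells express were present, with NEFL at 132 ± 32.1, 127 ± 7.53 and 285 ± 32.5 CPM in YTHDF3-ADAR, YTHDF2-ADAR and YTHDF1-ADAR total RNA. The blood, liver, endothelial and fibroblast markers PTPRC, CD3E, ALB, PECAM1 and COL1A2 each averaged at most 0.123 CPM in any group. In RNA from whole cultures, fewer cells that express a gene and less RNA per cell cannot be told apart.

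Of the 6 kinases, HIPK3 had the widest gap in editing between polysome and total RNA under each construct. HIPK3 lies on chromosome 11 (GRCh38, bases 33256672 to 33357023, plus strand), encodes a kinase linked to the androgen receptor and FADD, and is also the source of a well-known circular RNA, which reads and sites counted per gene do not separate from the linear mRNA. Editing per site is the authors' editing score divided by the number of edited sites, with 1 value over the replicates and an unknown sequencing depth, so it has no SD. It stood at 1.49% in polysome RNA and 3.35% in total RNA of the YTHDF3-ADAR line over 12 sites. In the YTHDF1-ADAR line it stood at 1.09% in polysome RNA and 5.45% in total RNA over 8 sites. Under YTHDF2-ADAR a single site was listed, with 0.694% in polysome RNA and 1.81% in total RNA.

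The value was thus lower on polysomes under all 3 constructs, by a factor of 2.24 under YTHDF3-ADAR, 2.60 under YTHDF2-ADAR and 5.02 under YTHDF1-ADAR. On the natural log scale of the odds ratio, the authors' deposited table gives -0.83, -0.97 and -1.66 for YTHDF3-ADAR, YTHDF2-ADAR and YTHDF1-ADAR. The authors' deposited table calls HIPK3 lower on polysomes under YTHDF3-ADAR, with an adjusted p of 0.000106, and under YTHDF1-ADAR, with an adjusted p of 4.26e-07. With its lone site under YTHDF2-ADAR, its adjusted p in the authors' deposited table is 1.

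HIPK3 was the only 1 of the 6 kinases with such a call. By the authors' deposited tables, 3.55% of 7042 listed genes were called under YTHDF3-ADAR (2.77% lower, 0.781% higher on polysomes), 1.39% of 4547 under YTHDF2-ADAR (0.968% lower, 0.418% higher) and 2.11% of 6858 under YTHDF1-ADAR (1.25% lower, 0.86% higher). These values chose the kinases in the first place, so nothing is read from the count. Among genes with a score above 0 in both fractions, 9.85% had an odds ratio below that of HIPK3 under YTHDF3-ADAR, 6.99% under YTHDF2-ADAR and 1.52% under YTHDF1-ADAR. The authors' deposited tables call 195 genes lower under YTHDF3-ADAR and 86 under YTHDF1-ADAR. HIPK3 is 1 of 3 genes on both of these lists, and no gene is called lower under all 3 constructs. The 3 genes make 1.54% of the first list, beside 1.25% of all listed genes called lower under YTHDF1-ADAR. They make 3.49% of the second list, beside 2.77% called lower under YTHDF3-ADAR. These shares are close, and nothing is read from the overlap. Of the genes called lower, 96 of 195 under YTHDF3-ADAR and 7 of 86 under YTHDF1-ADAR had an odds ratio below that of HIPK3.

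**Figure D1:**
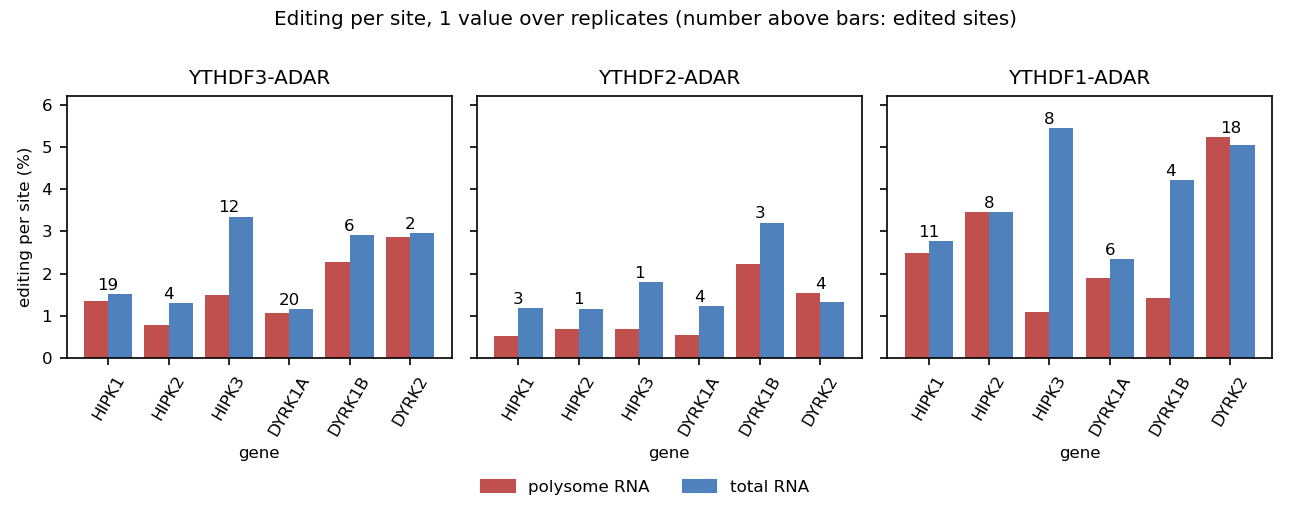
Editing per site in percent (y axis) of the 6 kinases in polysome RNA (red, left) and total RNA (blue, right), 1 panel per construct, with the number of edited sites above each pair of bars. HIPK3 stands at 1.49% in polysome RNA against 3.35% in total RNA under YTHDF3-ADAR, and at 1.09% against 5.45% under YTHDF1-ADAR.

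Among the nuclear HIPK kinases, HIPK1 and HIPK2 had smaller gaps between the fractions where they had more sites. HIPK1, on chromosome 1 (113929324 to 113977869, plus strand), acts on homeodomain transcription factors. It had 1.35% in polysome RNA and 1.52% in total RNA over 19 sites under YTHDF3-ADAR, and 2.48% against 2.77% over 11 sites under YTHDF1-ADAR. Over its 3 sites under YTHDF2-ADAR, HIPK1 had 0.522% in polysome RNA and 1.18% in total RNA.

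HIPK2, on chromosome 7 (139561570 to 139777998, minus strand), acts in the response to DNA damage and is held low by the ubiquitin ligases SIAH1 and SIAH2. It had 3.45% in both polysome RNA and total RNA over 8 sites under YTHDF1-ADAR. Over 4 sites under YTHDF3-ADAR it had 0.779% in polysome RNA and 1.31% in total RNA, and over 1 site under YTHDF2-ADAR 0.693% in polysome RNA and 1.17% in total RNA. The authors' deposited tables call neither gene under any construct, with adjusted p-values from 0.700 to 1.

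Within the DYRK branch the sign of the gap was not shared. DYRK1A lies on chromosome 21 (37365573 to 37526358, plus strand) and is the dosage-sensitive kinase studied in Down syndrome, where it acts on NFAT factors, tau and cyclin D1. Its editing per site was 1.07% in polysome RNA and 1.16% in total RNA over 20 sites under YTHDF3-ADAR. Under YTHDF2-ADAR it was 0.550% in polysome RNA and 1.24% in total RNA over 4 sites, and under YTHDF1-ADAR 1.89% in polysome RNA and 2.35% in total RNA over 6 sites. All 3 values were lower on polysomes, and the authors' deposited tables call none of them.

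DYRK1B, the closest relative of DYRK1A, is linked to quiescence of dividing cells and lies on chromosome 19 (39825350 to 39834201, minus strand). Its editing per site was 2.27% in polysome RNA and 2.91% in total RNA over 6 sites under YTHDF3-ADAR. It was 2.23% in polysome RNA and 3.21% in total RNA over 3 sites under YTHDF2-ADAR, and 1.44% in polysome RNA and 4.21% in total RNA over 4 sites under YTHDF1-ADAR. The last pair differed by a factor of 2.93, the next widest gap after HIPK3 under that construct, yet the authors' deposited table gives it an adjusted p of 0.927.

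DYRK2, on chromosome 12 (67648338 to 67665406, plus strand), encodes a kinase that is also a scaffold for a ubiquitin ligase that holds DDB1 and DCAF1. Its editing differed between the fractions by a factor of at most 1.15 under each construct, with 5.23% in polysome RNA and 5.04% in total RNA over 18 sites under YTHDF1-ADAR. It stood at 2.88% in polysome RNA and 2.97% in total RNA over 2 sites under YTHDF3-ADAR, and at 1.54% in polysome RNA and 1.34% in total RNA over 4 sites under YTHDF2-ADAR. DYRK2 was the most edited of the 6 on polysomes under YTHDF3-ADAR and YTHDF1-ADAR. There 78.2% and 88.4% of genes with a score above 0 in both fractions had a lower polysome value.

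**Figure D2:**
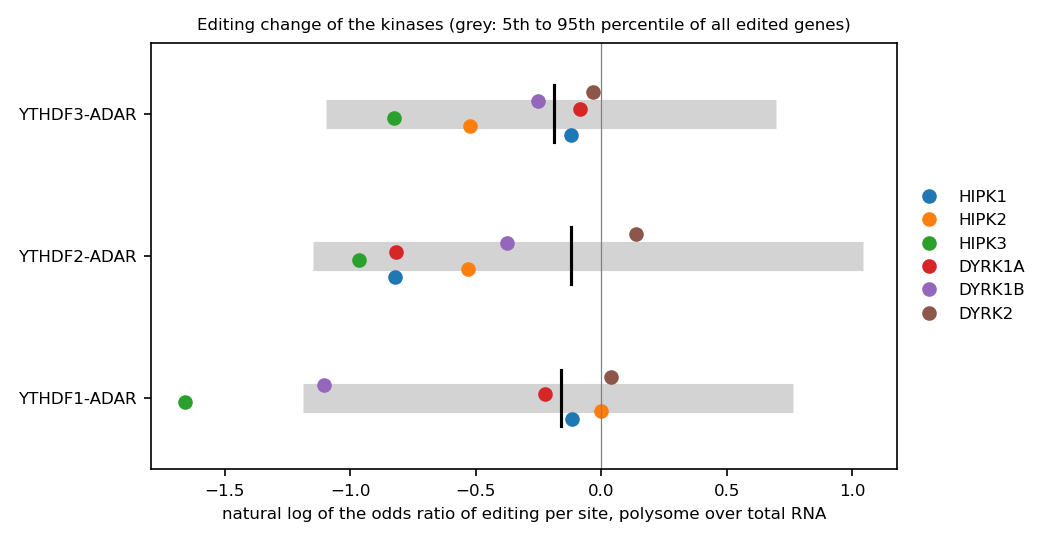
Natural log of the odds ratio of editing per site, polysome over total RNA (x axis), of the 6 kinases under each construct (y axis). Grey bands span the 5th to 95th percentile of all genes with scores above 0 in both fractions and black bars mark their medians of -0.19, -0.12 and -0.16 from top to bottom; HIPK3 at -1.66 under YTHDF1-ADAR lies outside its band.

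For the 6 kinases the median log odds ratio was -0.19 under YTHDF3-ADAR, against -0.19 over genes with scores above 0 in both fractions. Under YTHDF2-ADAR it was -0.68 against -0.12, from kinases with 1 to 4 sites each, and under YTHDF1-ADAR -0.17 against -0.16. Values below 0 were found for 6, 5 and 4 of the 6 kinases under YTHDF3-ADAR, YTHDF2-ADAR and YTHDF1-ADAR. The shares among genes with scores above 0 in both fractions were 66.9%, 60.2% and 64.2%. Values below 0 were thus the more frequent ones among those genes.

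The constructs divided their sites over the kinases in different ways. The 6 kinases together held 63 sites under YTHDF3-ADAR, 16 under YTHDF2-ADAR and 55 under YTHDF1-ADAR. Their median was 9, 3 and 8 sites per kinase, beside 4, 3 and 4 for the median listed gene. DYRK1A had the most under YTHDF3-ADAR, with 20 sites, followed by HIPK1 with 19, while DYRK2 had the most under YTHDF1-ADAR, with 18. DYRK2 had 2 sites under YTHDF3-ADAR, and the ratio of 0.111 between YTHDF3-ADAR and YTHDF1-ADAR was as low in 5.47% of the 2029 genes listed under both with at least 10 sites under either. Those genes had a median ratio of 1.45, and genes listed under only 1 of these constructs were left out. DYRK1A had a ratio of 3.33, which 14.2% of the same genes reached. Mean total RNA in the YTHDF3-ADAR and YTHDF1-ADAR lines was 50.3 and 79.7 CPM for DYRK2, and 59.3 and 73.3 CPM for DYRK1A. The part of RNA level in the number of sites was not tested. The tables give no error for a number of sites, so these ratios have no test.

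**Figure D3:**
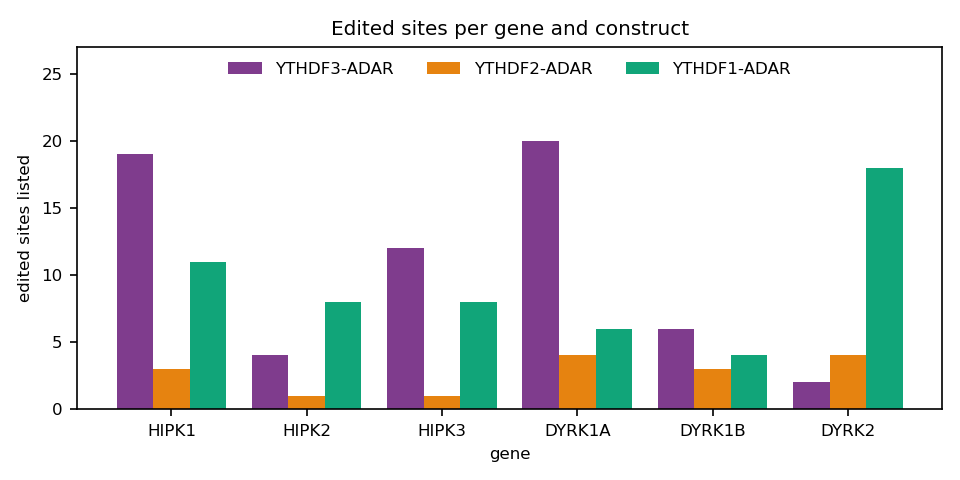
Number of edited sites listed per gene (y axis) for the 6 kinases under YTHDF3-ADAR, YTHDF2-ADAR and YTHDF1-ADAR (left to right within each gene). DYRK2 has 2 sites under YTHDF3-ADAR and 18 under YTHDF1-ADAR, while DYRK1A has 20 and 6.

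Levels between genes were compared per length, as CPM per kb of annotated exon. Averaged over the 9 total RNA libraries, HIPK2 stood highest at 12.4 CPM per kb, followed by HIPK1 at 10.6, DYRK2 at 7.32, HIPK3 at 5.62, DYRK1B at 4.28 and DYRK1A at 2.55. These levels lay between the percentiles 40.5 and 79.4 of 15675 protein-coding genes, whose median was 3.86 CPM per kb. HIPK2 and HIPK1 overlapped in YTHDF1-ADAR total RNA, where they ranged from 10.8 to 12.4 and from 10.1 to 12.2 CPM per kb. HIPK3 and DYRK1B overlapped in YTHDF3-ADAR total RNA, at 4.77 to 7.47 and 4.24 to 6.0 CPM per kb, so their order is not clear of the spread. DYRK1A, the lowest, had an exon annotation of 26763 bases, HIPK2, the highest, 15622, and DYRK1B 3192. The part of annotated length in this order was not tested.

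Exons of HIPK2, HIPK3 and DYRK1B overlapped no other annotated gene. For DYRK2, 6.27% of the exon length overlaps a long noncoding RNA on the opposite strand, which had a mean of 361.9 counts per library beside 4001.4 for DYRK2. The overlaps of HIPK1 and DYRK1A with noncoding RNAs on the opposite strand covered at most 1.88% of their exon length. The library kit keeps strand, but the sources used here do not give the strand setting of the counting.

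Mean HIPK3 RNA levels on polysomes were not below those of total RNA in any line. HIPK3 stood at 7.55, 6.38 and 5.99 CPM per kb in the 3 polysome libraries of the YTHDF3-ADAR line, against 7.47, 4.77 and 6.22 in its total RNA. In the YTHDF2-ADAR line it stood at 5.59, 5.57 and 5.94 CPM per kb in polysome RNA, against 4.22, 5.69 and 5.21 in total RNA. In the YTHDF1-ADAR line it stood at 6.80, 6.90 and 7.49 CPM per kb in polysome RNA, against 4.21, 6.36 and 6.46 in total RNA. The fractions overlapped in the YTHDF3-ADAR and YTHDF2-ADAR lines and did not in the YTHDF1-ADAR line, where total RNA replicate 1 was the lowest. That library also had the lowest share of counts in protein-coding genes, 55.2%, and the part of this share in its HIPK3 value was not tested.

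DYRK2 showed the same order in the YTHDF1-ADAR line. There it had 10.5, 11.1 and 9.84 CPM per kb in polysome RNA, against 7.41, 9.05 and 8.78 in total RNA. In the YTHDF2-ADAR line it had 9.68, 9.16 and 9.16 CPM per kb in polysome RNA, against 7.92, 8.85 and 7.96 in total RNA. The fractions did not overlap in either line.

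The log2 fold changes of RNA level, polysome over total RNA, ranged from -0.14 for HIPK2 to 0.32 for DYRK2, both in the YTHDF1-ADAR line. For HIPK3 they were 0.11 ± 0.17, 0.18 ± 0.17 and 0.31 ± 0.17 in the YTHDF3-ADAR, YTHDF2-ADAR and YTHDF1-ADAR lines (± SE). For HIPK1 they were 0.18, 0.15 and 0.20, each with an SE of 0.09, and for DYRK1A 0.10, 0.10 and 0.13, each with an SE of 0.14. These SEs treat the libraries as unpaired. Between polysome and total RNA libraries of the same number, HIPK1 was higher on polysomes in 9 of 9 pairs, by 0.09 to 0.24 on the log2 scale, and DYRK1A and DYRK2 in 8 of 9 each. HIPK2 had -0.04, -0.13 and -0.14, each with an SE of 0.08, and was the kinase with a negative value in all 3 lines. Without normalization factors HIPK2 read 0.29 in the YTHDF1-ADAR line. Over the alternatives its sign changed in 6 of 13 in the YTHDF3-ADAR line, where it reached 0.26. In the YTHDF2-ADAR line it changed in 1 of 12, where it reached 0.23, and in the YTHDF1-ADAR line in 1 of 12. DYRK1B stayed between -0.07 and 0.01.

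Polysome association was part of how the kinases were chosen, so their calls are given as a description. At an adjusted p under 0.05 (edgeR quasi-likelihood test, Benjamini-Hochberg over all genes), 0 of 6 were called in each line, beside 20.1% of genes in the YTHDF3-ADAR line (8.01% higher, 12.1% lower), 15.8% in the YTHDF2-ADAR line (6.71% higher, 9.04% lower) and 21.2% in the YTHDF1-ADAR line (9.26% higher, 11.9% lower). At an unadjusted p under 0.05 the counts were 0, 0 and 1, beside 8828, 7734 and 9084 of the 26804 genes. DESeq2 called 0 in each line, beside 6412, 4689 and 6149 genes at an adjusted p under 0.05. With polysome and total RNA libraries of the same number paired, 3 kinases were called higher on polysomes in the YTHDF1-ADAR line. The paired fit called 9843 of the 26804 genes there, in either direction. The 3 were HIPK1, HIPK3 and DYRK2 at log2 fold changes of 0.21, 0.34 and 0.32 (adjusted p = 0.0342, 0.0494 and 0.0102, in ranges over all alternatives up to 0.367, 0.633 and 0.538). DYRK2 alone was called higher on polysomes in the YTHDF3-ADAR line without replicate 1 of both fractions, at 0.29 (adjusted p = 0.0398, in a range up to 0.984), and without replicate 1 of total RNA, at 0.52 (0.0220). Without replicate 1 of total RNA, 7063 of the 26804 genes were called in either direction. The alternatives other than single libraries left out called 208 to 9030 genes in that line. The fit without replicate 1 of both fractions is among them. The medians of the 6 kinases were 0.10, 0.13 and 0.17, beside medians over all genes of -0.05, 0.03 and 0.03, and over protein-coding genes of 0.05, 0.13 and 0.13.

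The difference of polysome change between lines is formed from the same polysome and total RNA values that entered the choice, so it too is given as a description. For HIPK3 it was -0.21 ± 0.24 between YTHDF3-ADAR and YTHDF1-ADAR on the log2 scale, with a 95% interval from -0.71 to 0.30. For DYRK2 it was -0.20 ± 0.27, with an interval from -0.77 to 0.37, the widest of the 6. No kinase and none of the 26804 genes was called by edgeR in any of the 3 pairs of lines, so percent called was 0, while 877, 166 and 801 genes had an unadjusted p under 0.05 for YTHDF3-ADAR minus YTHDF1-ADAR, YTHDF2-ADAR minus YTHDF1-ADAR and YTHDF3-ADAR minus YTHDF2-ADAR, none of them a kinase of the 6. DESeq2 called 1, 0 and 9 genes in the same order, and none of the kinases. Without replicate 1 of both YTHDF3-ADAR fractions edgeR called 261 genes in the difference from the YTHDF1-ADAR line and 286 in that from the YTHDF2-ADAR line, without its polysome replicate 1 alone 26 and 21, and without its total RNA replicate 1 alone 2 and 0, again none of the kinases. The intervals leave room for differences of the sizes just given.

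**Figure D4:**
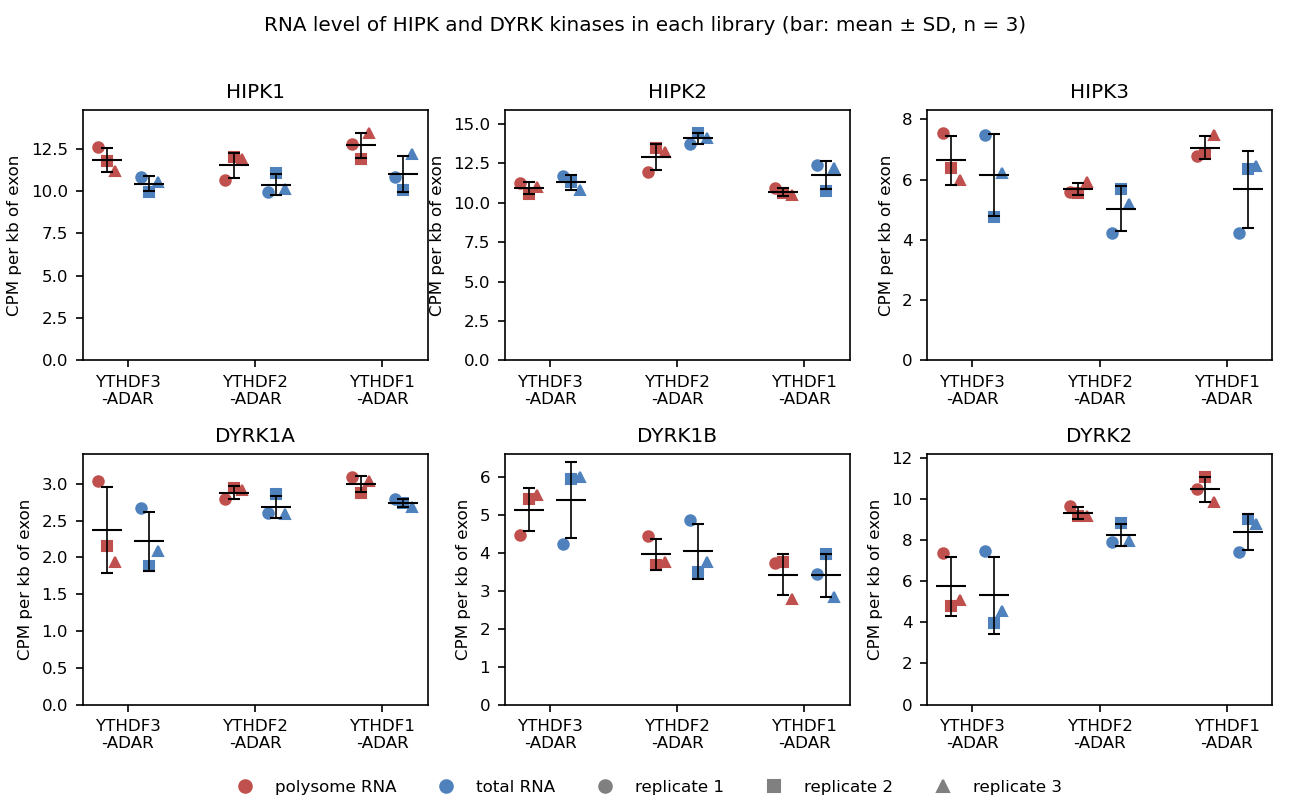
RNA level in CPM per kb of exon (y axis) of each kinase in the 18 libraries, with polysome RNA (red) left of total RNA (blue) in each line, symbols by replicate number and bars for the mean ± SD of 3 libraries. DYRK2 total RNA in the YTHDF3-ADAR line splits into replicate 1 at 7.45 and the other libraries at 3.95 and 4.53 CPM per kb.

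In total RNA the widest gaps between lines were those of DYRK2 and DYRK1B. Levels were part of how the kinases were chosen, so the folds and calls between lines below describe them and support nothing further. DYRK2 had 7.45, 3.95 and 4.53 CPM per kb in YTHDF3-ADAR total RNA, against 7.92, 8.85 and 7.96 in YTHDF2-ADAR and 7.41, 9.05 and 8.78 in YTHDF1-ADAR total RNA. YTHDF3-ADAR replicates 2 and 3 were far below every other total RNA library, while replicate 1 was within the range of the YTHDF1-ADAR line. Its polysome libraries were split alike, at 7.37, 4.78 and 5.09 CPM per kb.

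The edgeR fit over all genes placed DYRK2 lower in YTHDF3-ADAR than in YTHDF1-ADAR total RNA, with a log2 fold change of -0.66 ± 0.19 and an adjusted p of 0.0262. Against YTHDF2-ADAR total RNA the log2 fold change was -0.63 ± 0.19 with an adjusted p of 0.0269. Of all genes, 6.52% were called lower in YTHDF3-ADAR than in YTHDF1-ADAR total RNA and 7.57% lower than in YTHDF2-ADAR total RNA. The call against YTHDF1-ADAR was lost without YTHDF3-ADAR replicate 2 (adjusted p = 0.139) or 3 (0.132) and without YTHDF1-ADAR replicate 2 (0.0824) or 3 (0.0804). The call against YTHDF2-ADAR was lost without YTHDF3-ADAR replicate 2 (adjusted p = 0.142) or 3 (0.128) and without YTHDF2-ADAR replicate 2 (0.0930) or 3 (0.0588). Without replicate 1 of both YTHDF3-ADAR fractions, left out after its values were seen, the log2 fold changes were -1.02 and -0.99 (adjusted p = 2.54e-07 and 2.63e-07, in ranges over all alternatives up to 0.163 and 0.158).

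DYRK1B had the opposite order. It had 4.24, 5.94 and 6.0 CPM per kb in YTHDF3-ADAR total RNA, against 4.87, 3.49 and 3.76 in YTHDF2-ADAR and 3.45, 3.97 and 2.83 in YTHDF1-ADAR total RNA. Every YTHDF3-ADAR library was above every YTHDF1-ADAR library, and replicate 1 was again the YTHDF3-ADAR library nearest to the other lines. The same fit placed DYRK1B higher in YTHDF3-ADAR than in YTHDF1-ADAR total RNA, with a log2 fold change of 0.66 ± 0.18 and an adjusted p of 0.0183, where 11.6% of genes were called higher. The call was lost without YTHDF1-ADAR replicate 1 (adjusted p = 0.0501) or 3 (0.0874) and without YTHDF3-ADAR replicate 2 (0.0860) or 3 (0.0931). Against YTHDF2-ADAR the log2 fold change was 0.42 ± 0.18 with an adjusted p of 0.0922, where 15.2% of genes were called higher, and without replicate 1 of both YTHDF3-ADAR fractions it was 0.53 (adjusted p = 0.0109, in a range over all alternatives up to 0.288). The same comparison also passed without YTHDF2-ADAR replicate 1 (0.0470), without YTHDF3-ADAR total RNA replicate 1 alone (0.0214) and without normalization factors, at 0.61 (0.0142).

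HIPK2 had 11.7, 11.3 and 10.8 CPM per kb in YTHDF3-ADAR total RNA, against 13.7, 14.4 and 14.1 in YTHDF2-ADAR total RNA, and these did not overlap. The log2 fold change was -0.32 ± 0.08 with an adjusted p of 0.0116, lost without YTHDF2-ADAR replicate 2 (0.0502) or YTHDF3-ADAR replicate 3 (0.0656). Without normalization factors it was -0.13 with an adjusted p of 0.379. YTHDF1-ADAR total RNA had 12.4, 10.8 and 12.2 CPM per kb of HIPK2, also below every YTHDF2-ADAR library. The log2 fold change of YTHDF2-ADAR over YTHDF1-ADAR was 0.26 ± 0.08 with an adjusted p of 0.165 by edgeR, while DESeq2 called it at 0.27 with an adjusted p of 0.0183, in a range over all alternatives up to 0.615. No kinase was called between these lines by edgeR, beside 1.83% of genes (0.545% higher, 1.28% lower).

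DYRK1A had 2.67, 1.89 and 2.09 CPM per kb in YTHDF3-ADAR total RNA, against 2.61, 2.86 and 2.60 in YTHDF2-ADAR and 2.79, 2.74 and 2.69 in YTHDF1-ADAR total RNA. YTHDF3-ADAR replicates 2 and 3 were the lowest of all and replicate 1 was within the range of the YTHDF2-ADAR line. The log2 fold changes were -0.31 ± 0.14 against YTHDF1-ADAR and -0.28 ± 0.14 against YTHDF2-ADAR (adjusted p = 0.141 and 0.162). Without replicate 1 of both YTHDF3-ADAR fractions they were -0.49 and -0.47 (adjusted p = 7.61e-05 and 0.000112, in ranges over all alternatives up to 0.802 and 0.724), and without its total RNA replicate 1 alone the adjusted p was 0.0141 and 0.0165. HIPK1 and HIPK3 had log2 fold changes between -0.17 and 0.29 over the 3 pairs of lines, with adjusted p-values from 0.225 to 0.989.

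In all, 2 of 6 kinases were called between YTHDF3-ADAR and YTHDF1-ADAR total RNA, where 18.1% of genes were called, and 2 of 6 between YTHDF3-ADAR and YTHDF2-ADAR, where 22.8% were called. These 2 comparisons share the YTHDF3-ADAR libraries. In a fit of the compared libraries alone none of these calls was kept, with adjusted p from 0.0671 to 0.155. Protein-coding genes took 71.5 to 74.8% of counts in YTHDF3-ADAR, 60.4 to 68.4% in YTHDF2-ADAR and 55.2 to 68.3% in YTHDF1-ADAR total RNA libraries, and the part of that shift in these results was not tested. With no normalization factors the all-gene median became 0.25 and 0.20 in these 2 comparisons, and DYRK2 fell short of the threshold at -0.43 and -0.44 (adjusted p = 0.163 and 0.158). Both kinases called against YTHDF2-ADAR, HIPK2 and DYRK2, were then lost, and DYRK1B was called in both comparisons.

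**Figure D5:**
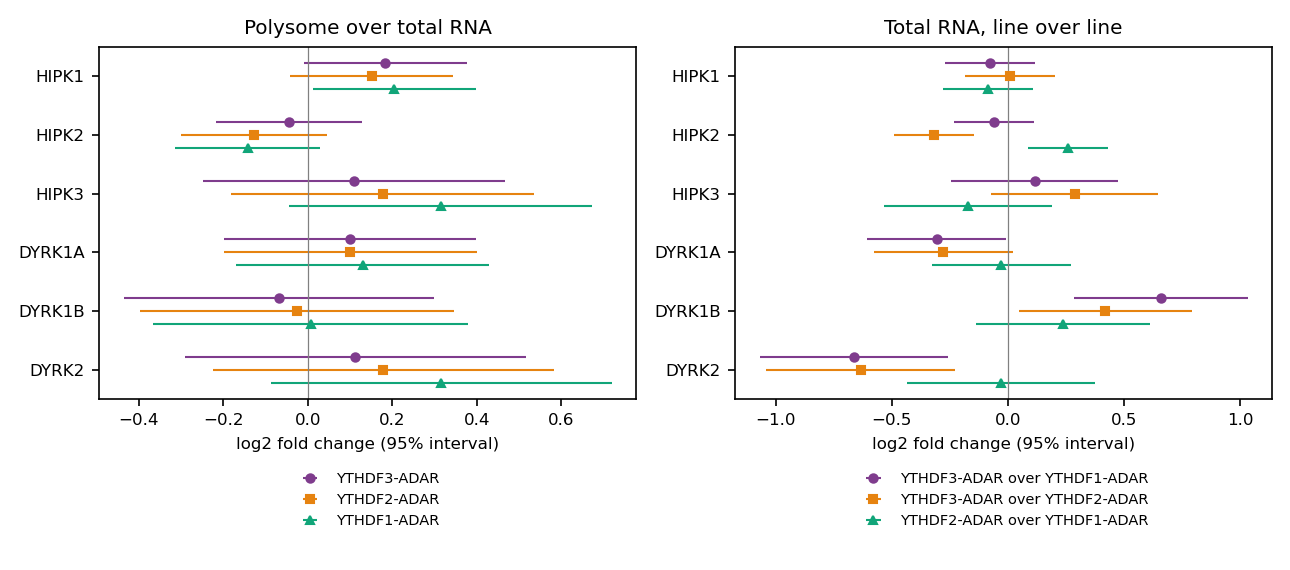
Log2 fold changes with 95% intervals (x axis) of the 6 kinases (y axis), polysome over total RNA by line on the left and total RNA between lines on the right. On the right DYRK2 lies at -0.66 and -0.63 and DYRK1B at 0.66 and 0.42 for YTHDF3-ADAR over YTHDF1-ADAR and over YTHDF2-ADAR.

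The remaining family members were HIPK4, DYRK3 and DYRK4. DYRK3, which governs the dissolving of stress granules, stood at 4.42 CPM per kb in total RNA and DYRK4 at 1.27, and neither was called in any comparison. DYRK3 had 1 edited site under YTHDF3-ADAR and 5 under YTHDF1-ADAR, and DYRK4 was not listed as edited. HIPK4 stood at 0.103 CPM per kb in total RNA, with 5 to 20 reads in each total RNA library, yet was listed with 9, 7 and 7 sites under YTHDF3-ADAR, YTHDF2-ADAR and YTHDF1-ADAR. It shares 63 exon bases with PLD3 on the opposite strand, which averaged 4636 counts per library. PLD3 itself was listed with 5, 6 and 8 sites, and the part of the overlap in the sites of HIPK4 was not tested.

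Partners and substrates of the kinases were followed as lists chosen with results of these data known. Their counts stand beside shares over all genes of 11.6% higher and 6.52% lower in YTHDF3-ADAR against YTHDF1-ADAR total RNA, 15.2% and 7.57% against YTHDF2-ADAR, and 0.545% and 1.28% in YTHDF2-ADAR against YTHDF1-ADAR. Of 16 HIPK partners, 2 were higher and 2 lower in YTHDF3-ADAR than in YTHDF1-ADAR total RNA, with a median log2 fold change of -0.04 beside 0.02 over all genes. MDM2, a ubiquitin ligase, fell by 0.65 ± 0.12 on the log2 scale (adjusted p = 0.00187), and the death adaptor FADD fell by 0.41 ± 0.13. PML, the scaffold of nuclear bodies, rose by 0.43 ± 0.14, though YTHDF3-ADAR replicate 1, at 29.5 CPM, was within the YTHDF1-ADAR range of 26.5 to 31.1 CPM. Against YTHDF2-ADAR total RNA 3 were higher and 3 lower, with MDM2 at -0.70 ± 0.12 and the acetyltransferase gene CREBBP at -0.48 ± 0.15. None was called between YTHDF2-ADAR and YTHDF1-ADAR. On polysomes against total RNA, 0 were higher and 1 lower in the YTHDF3-ADAR line (all genes 8.01% and 12.1%), 2 and 1 in the YTHDF2-ADAR line (6.71% and 9.04%), and 3 and 2 in the YTHDF1-ADAR line (9.26% and 11.9%), where SIAH2 stood at 0.47 ± 0.09 and CREBBP at -0.62 ± 0.15.

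Of 21 DYRK partners, 5 were higher and 1 lower in YTHDF3-ADAR than in YTHDF1-ADAR total RNA, beside 11.6% and 6.52% of all genes, with a median of 0.13. NFATC4, a calcium-regulated transcription factor, rose by 1.64 ± 0.44 and MAPT, the gene of tau, by 1.18 ± 0.32. YTHDF3-ADAR replicate 1 stood apart for both. NFATC4 had 6.18, 26.8 and 25.4 CPM in YTHDF3-ADAR total RNA, against 5.68, 6.02 and 6.99 in YTHDF1-ADAR, and MAPT had 12.7, 38.7 and 38.0 CPM, against 13.4, 12.2 and 13.9, so the lines overlapped. Cyclin D1, CCND1, differed between all 3 lines, at 0.88 ± 0.19 for YTHDF3-ADAR over YTHDF1-ADAR, -1.87 ± 0.19 for YTHDF3-ADAR over YTHDF2-ADAR and 2.75 ± 0.20 for YTHDF2-ADAR over YTHDF1-ADAR (adjusted p = 0.00536, 1.20e-05 and 4.93e-07). CCND1 was the 1 DYRK partner called between YTHDF2-ADAR and YTHDF1-ADAR. Between YTHDF3-ADAR and YTHDF2-ADAR, 3 were higher and 1 lower. On polysomes against total RNA, 1 was higher and 4 lower in the YTHDF3-ADAR line (all genes 8.01% and 12.1%), 3 and 2 in the YTHDF2-ADAR line (6.71% and 9.04%), and 3 and 4 in the YTHDF1-ADAR line (9.26% and 11.9%). DCAF1, a subunit of the ligase that DYRK2 scaffolds, was lower on polysomes in each, at -0.60, -0.53 and -0.73, each with an SE of 0.11.

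The DREAM complex, a repressor of cell cycle genes whose assembly depends on phosphorylation by DYRK1A, had 0 higher and 2 lower of 12 in YTHDF3-ADAR against YTHDF1-ADAR total RNA, E2F5 at -0.66 ± 0.09 and LIN54 at -0.32 ± 0.10. On polysomes against total RNA it had 4, 3 and 4 higher and 0 lower in the YTHDF3-ADAR, YTHDF2-ADAR and YTHDF1-ADAR lines. There 8.01%, 6.71% and 9.26% of all genes were called higher and 12.1%, 9.04% and 11.9% lower, and of 15675 protein-coding genes 1944, 1633 and 2187 were higher and 1252, 749 and 1171 lower. E2F5 was higher on polysomes in each, at 0.31, 0.34 and 0.44. Among 52 other CMGC kinases, 8 were higher and 7 lower on polysomes in the YTHDF3-ADAR line, 7 and 7 in the YTHDF2-ADAR line, and 13 and 8 in the YTHDF1-ADAR line. SRPK3 was the lowest or next to lowest in each, at -1.58, -1.23 and -1.44, and CDK10 stood at -0.92, -0.80 and -0.94. In total RNA, 6 of them were higher and 2 lower in YTHDF3-ADAR than in YTHDF1-ADAR, with CDK18 at 1.59 ± 0.42 and MAPK11 at 1.54 ± 0.30. For CDK18, YTHDF3-ADAR replicate 1, at 11.8 CPM, was within the YTHDF1-ADAR range of 8.81 to 11.9 CPM. Against YTHDF2-ADAR 8 were higher and 5 lower, and between YTHDF2-ADAR and YTHDF1-ADAR 1 was higher and 1 lower. For the DREAM complex these counts were 1 and 1, and 0 and 1.

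Across the 18 libraries DYRK1A and DYRK2 levels on the log2 scale had a Pearson r of 0.919, and DYRK1B had -0.784 with DYRK1A and -0.801 with DYRK2. The 18 points share 6 groups and the replicate 1 libraries of the YTHDF3-ADAR line, so these values only describe them. Among 11801 other protein-coding genes, KLHL42 and RBAK-RBAKDN followed DYRK2 most closely (r = 0.975 each), and HNRNPH1 and LSG1 followed DYRK1A (r = 0.972 each). SIDT2 and GRAMD4 followed DYRK1B (r = 0.948 and 0.940), SOAT1 and SPPL2A followed HIPK1 (r = 0.944 and 0.904), ZNF419 and SNX5 followed HIPK2 (r = 0.919 and 0.910), and SYT14 and CPEB4 followed HIPK3 (r = 0.928 and 0.886).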

How the data were processed

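The authors deposited a raw count for each gene in each library. The submitters' processing notes name STAR 2.7.7, featureCounts 2.0.1, DESeq2 and GRCh38. The sources used here do not give the strand setting, the annotation release or the version of DESeq2. For every construct the authors deposited a table of edited genes with the sites listed for each gene and an editing score for either fraction, 1 value over the replicates. Score divided by sites is given as percent editing per site. The deposited column of editing change equals the natural log of the odds ratio between these shares, to within 5.62e-08. The sources used here do not say how the authors called sites, combined replicates or computed the adjusted p-value. A deposited comparison table with a signal (baseMean), a log2 fold change and a p-value names no comparison and was used for gene symbols only.

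edgeR 4.0.16 in R 4.3.3 was run with filterByExpr at its minimum count of 10, TMM factors and 1 robust quasi-likelihood fit of the 6 group means over all 18 libraries. A row that names no human gene was left out and held at most 1.48e-05% of a library's counts. Benjamini-Hochberg adjusted p under 0.05 was called, and the SE is the log2 fold change over the root of its F statistic. The fit was also run on simulated counts, whose outcome is not given here, so nothing is read from it. DESeq2 1.42.0, other scalings, no filter, fits of the compared libraries alone, libraries left out in turn and replicate blocks were alternatives. Polysome and total RNA libraries of the same number deviated together from their group means in all 9 pairs (r from 0.177 to 0.703). The numbers were therefore read as pairing within a line, which is an assumption, as not every polysome library was closest to its own number. YTHDF3-ADAR polysome library 2 had r = 0.624 with total RNA library 3, against 0.243 with total RNA library 2. For YTHDF1-ADAR polysome library 2 it was 0.367 with total RNA library 1, against 0.238 with total RNA library 2. Across lines the r of total RNA libraries of the same number ran from -0.519 to 0.852, and no pairing was read. The lowest chi-square per degree of freedom between libraries of a group was 6.98, so none was taken as a duplicate. The labels name no molecular identifiers, so reads were not taken as independent molecules, and errors cover these libraries only.

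The kinases and gene lists were chosen with earlier results of these data known. Named genes are the 6 kinases, their 3 relatives, up to 4 called genes with the largest change per list and comparison, the 4 genes of a list with most sites, and the 2 genes most like each kinase by Pearson r among protein-coding genes whose mean log2 CPM was 2 or more. The genes of the fusions and the markers of cell types were added as checks. Some items of the lists are withheld and not reported here, though they remain in the counts per list.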

Additional observations from a re-analysis of the deposited data

How the results depend on the processing

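The count of kinases called between polysome and total RNA was 0 in each line. Without normalization factors it became 1, 2 and 6 in the YTHDF3-ADAR, YTHDF2-ADAR and YTHDF1-ADAR lines. Of the 26804 genes, 8456, 10457 and 12421 were then called. The median of all genes moved to 0.25, 0.40 and 0.46, and HIPK2 turned to 0.29 in the YTHDF1-ADAR line. With the replicate block within a line the count of kinases became 3 in the YTHDF1-ADAR line, beside 9843 genes. No other count of kinases changed with it. The count of 2 in total RNA of YTHDF3-ADAR against YTHDF1-ADAR, and of 2 against YTHDF2-ADAR, became 1 and 1 without normalization factors, beside 7314 and 7147 genes. Both kinase calls were DYRK1B, whose call against YTHDF2-ADAR arose there while those of HIPK2 and DYRK2 were lost. The counts of kinases became 0 and 0 in a fit of the compared libraries alone, beside 291 and 1326 genes. They were also 0 and 0, beside 1755 and 2964 genes, with a replicate block shared by the lines. Replicate numbers were not read as pairing across lines. The DESeq2 test called 1 kinase between YTHDF2-ADAR and YTHDF1-ADAR, against 0, beside 783 genes. Leaving out 1 library gave 0 to 3 against YTHDF1-ADAR, 0 to 4 against YTHDF2-ADAR and 0 to 1 on polysomes of the YTHDF3-ADAR line. The same fits called 1683 to 9995, 2574 to 11280 and 2841 to 7063 of all genes. Without replicate 1 of both YTHDF3-ADAR fractions, chosen after seeing the data, the counts were 3 and 4 in total RNA and 1 on polysomes. In total RNA 12544 and 13647 of all genes were then called. On polysomes the alternatives that include this fit, single libraries left out aside, called 208 to 9030 genes. No alternative called a kinase in the difference of polysome change. The causes of these shifts were not tested.

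Counts over all genes moved by more than 1.5 times under several alternatives. On polysomes of the YTHDF3-ADAR, YTHDF2-ADAR and YTHDF1-ADAR lines they were 5392, 4223 and 5674, and became 8456, 10457 and 12421 without normalization factors, 9030, 8158 and 9843 with the replicate block, and 208, 8336 and 7889 in a fit of the compared libraries alone. In total RNA of YTHDF3-ADAR against YTHDF1-ADAR, YTHDF3-ADAR against YTHDF2-ADAR and YTHDF2-ADAR against YTHDF1-ADAR they were 4856, 6113 and 490, and became 291, 1326 and 956 in a fit of the compared libraries alone, 1755, 2964 and 72 with the block shared by the lines, and 7314, 7147 and 326 without normalization factors. Leaving out 1 library gave 2841 to 7063, 2275 to 3271 and 3281 to 4454 on polysomes, and 1683 to 9995, 2574 to 11280 and 241 to 326 in total RNA, in the same orders. DESeq2 called 783 genes between YTHDF2-ADAR and YTHDF1-ADAR. Without replicate 1 of both YTHDF3-ADAR fractions, the counts against YTHDF1-ADAR and YTHDF2-ADAR were 12544 and 13647 in total RNA, and 261 and 286, in place of 0, in the difference of polysome change. For editing, the median per site of the kinases in YTHDF2-ADAR polysome RNA was 0.694%, and the sum of scores over the sum of sites was 1.13%. No kinase had at least 5 sites under YTHDF2-ADAR, so that alternative gave no value there. Depth behind the editing scores is unknown.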

Other observations

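Among partners and relatives of the kinases, editing was spread unevenly. DNM1, the gene of dynamin 1 and a DYRK1A substrate, was edited at far higher levels per site than any of the 6 kinases, with 30.4% in polysome RNA and 26.0% in total RNA under YTHDF3-ADAR. Under YTHDF1-ADAR it had 36.5% in polysome RNA and 43.0% in total RNA, and the authors' deposited table calls it lower on polysomes with an adjusted p of 0.00399. WSB1, a ubiquitin ligase subunit that acts on HIPK2, had 16, 3 and 8 sites under YTHDF3-ADAR, YTHDF2-ADAR and YTHDF1-ADAR.

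Of 52 other CMGC kinases, 37, 31 and 35 were listed as edited under YTHDF3-ADAR, YTHDF2-ADAR and YTHDF1-ADAR, beside 36.4%, 23.5% and 35.4% of all protein-coding symbols. All 52 passed the filter on low counts, while of the 19349 symbols many did not, with 15675 protein-coding genes tested. The sets are thus unlike and nothing is read from the gap between them. CDK17 had the most sites, with 39, 23 and 24, and 5.57% in polysome RNA against 9.66% in total RNA under YTHDF3-ADAR. The authors' deposited tables call MAPK6 and SRPK1 lower on polysomes under YTHDF3-ADAR and CSNK2A1 under YTHDF1-ADAR, as well as NFATC3, an NFAT factor of the DYRK partner list, under YTHDF1-ADAR.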
